A study of Mus musculus with 12 samples.

Results

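The interleukin 1 (IL-1) family genes Il1a, Il1b, Il1rn, Il1r2, Il1rap, Il1rl1, Il18, Casp1 and Casp4 were followed through 12 RNA-seq libraries of mouse macrophages. The 9 genes were chosen by name for their roles as cytokines, antagonist, receptors and processing caspases. They were picked out of 54232 genes in the count table, with earlier results of these data known. All 9 passed the filter on low counts, as did 16281 genes in total. The cells were bone marrow-derived macrophages (BMDMs) of wild-type C57BL/6 mice, kept for 5 days in culture and then treated for 24 h. Macrophages without either treatment were named NS. Other cultures received tumor-conditioned medium (TCM) from NB9464, a mouse neuroblastoma line with MYCN amplification, or from NBT3L, a line without it. Each of the 3 conditions was also run with 500 nM R788 (fostamatinib), a drug directed at the tyrosine kinase Syk. Those groups are R788 (without TCM), NBT3L TCM + R788 and NB9464 TCM + R788. The design addresses how secreted products of neuroblastoma cells change macrophage transcription, and what Syk inhibition does to that change.

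There were 2 libraries per group, named SJ1 to SJ12. Nothing states that they came from separate cultures or animals, so p-values measure only the spread between these libraries. The share of all genes whose groups of 2 libraries did not overlap was not computed. NB9464 TCM was collected in DMEM without serum, whereas no source gives the preparation of NBT3L TCM, the medium of NS cells or a vehicle for R788. A difference between a TCM group and NS therefore includes any difference of base medium and serum, and these cannot be told apart. Likewise, a difference with R788 includes any difference of vehicle, which cannot be told apart from the drug. Total counts ranged from 44977847 to 56449685. In SJ8 of the R788 group, 16149 genes were detected although its total was the largest, whereas other libraries had 17275 to 18343. Replicates of the R788 group also differed more from each other, with an SD of log2 differences of 0.469 over 11500 genes, against 0.293 to 0.331 in the remaining pairs. All 8 macrophage markers were above 10 normalized counts in every group. Some markers of other cells were absent or low. Fcer1a, Ms4a2 and Tpsb2 of mast cells, Ncr1 of natural killer cells and Siglech of plasmacytoid dendritic cells had 0 counts in all libraries. So did Th and Chga of neuroblastoma, and Ly6g of neutrophils had at most 4. Of markers that were present, S100a8 (neutrophils) was measured at 670.6 to 8055 normalized counts, Il7r (lymphocytes) at 1078 to 7664 and Col1a1 (fibroblasts) at 549 to 1588. In these bulk samples, fewer cells of a type and less RNA per cell cannot be told apart.

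IL-1α and IL-1β are inflammatory cytokines that bind the same receptor, which signals together with the accessory protein encoded by Il1rap. IL-1 receptor antagonist, the product of Il1rn, occupies that receptor without starting a signal, and Il1r2 encodes a decoy receptor that binds IL-1 without relaying it. IL-1β and IL-18 are made as precursors that caspase-1 cleaves inside inflammasomes, and mouse caspase-4, also known as caspase-11, senses bacterial lipopolysaccharide in the cytosol. Il1rl1 encodes ST2, the receptor for IL-33. Macrophages are a main source of IL-1 and of its antagonist, so that the same cell makes both the signal and its brake.

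Il1a and Il1b lie near each other on mouse chromosome 2 and are both transcribed from the minus strand, within 71.5 kb. Il1a occupies chr2:129299610-129309972 and Il1b chr2:129364570-129371139 on GRCm38 (mm10). Il1rn lies far from them on the same chromosome, at chr2:24336853-24351494 on the plus strand, at the end of a 165.0-kb cluster with Il1f9, Il1f6, Il1f5 and Il1f10. Casp1 (chr9:5298517-5307265) and Casp4 (chr9:5308828-5336783) are neighbors on the plus strand of chromosome 9. The 250 bases before the annotated start site are printed for the 3 genes that rose in both TCMs, Il1a, Il1b and Il1rn, and for Casp4, the member whose promoter held matches to the NF-kB consensus. They are from RefSeq on GRCm38.p6, run 5′ to 3′ on the strand of the gene, and carry motif matches in capitals. The intervals are chr2:129309973-129310222 (minus strand) for Il1a, chr2:129371140-129371389 (minus strand) for Il1b, chr2:24336610-24336859 (plus strand) for Il1rn and chr9:5308599-5308848 (plus strand) for Casp4.
Il1a: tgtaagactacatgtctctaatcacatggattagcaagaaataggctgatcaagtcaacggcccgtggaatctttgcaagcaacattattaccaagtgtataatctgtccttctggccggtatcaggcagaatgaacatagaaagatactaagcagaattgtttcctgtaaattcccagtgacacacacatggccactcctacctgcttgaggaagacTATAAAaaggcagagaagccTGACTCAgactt
Il1b: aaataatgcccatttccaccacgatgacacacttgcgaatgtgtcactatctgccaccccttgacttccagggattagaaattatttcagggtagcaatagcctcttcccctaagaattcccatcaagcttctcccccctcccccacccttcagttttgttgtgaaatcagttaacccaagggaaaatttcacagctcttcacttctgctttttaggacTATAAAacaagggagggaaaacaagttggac
Il1rn: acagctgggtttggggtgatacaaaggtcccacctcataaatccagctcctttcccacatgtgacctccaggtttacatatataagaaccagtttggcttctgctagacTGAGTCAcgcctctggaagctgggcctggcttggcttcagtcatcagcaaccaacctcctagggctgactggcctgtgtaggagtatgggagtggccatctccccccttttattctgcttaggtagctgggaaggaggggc
Casp4: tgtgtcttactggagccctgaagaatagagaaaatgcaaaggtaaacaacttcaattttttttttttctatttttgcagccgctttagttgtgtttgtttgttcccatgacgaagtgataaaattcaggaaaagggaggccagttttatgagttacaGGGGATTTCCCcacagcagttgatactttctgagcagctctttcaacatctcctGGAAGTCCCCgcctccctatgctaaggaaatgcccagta

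Motifs were searched on both strands, over windows from 250 bases before to 50 bases after a start site. A TATA box was searched as TATAAA, which occurs in 13.6% of 32851 mouse promoter windows. Il1a held one at positions -32 to -27 from the start site, and Il1b at -31 to -26. AP-1 was searched as TGANTCA, which reads alike on both strands and occurs in 7.81% of windows. It matched at -12 to -6 in Il1a and at -141 to -135 of the first annotated start of Il1rn. Starts 2 and 3 of Il1rn held no AP-1 match. At its first start Casp4 held overlapping matches to the NF-kB consensus between -93 and -83 and another at -39 to -30, and 8.46% of windows hold such a match. An IRF pair, searched as GAAANNGAAA and present in 3.44% of windows, lay 21 to 30 bases after the start of Il1rap. Il18 held a TATA box on the opposite strand at -175 to -170, and a later start of Il1rn a TATA box on the opposite strand at 15 to 20. No match means only that these letters are not in the window, and all matches are descriptions of sequence.

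The agonist genes were nearly silent in NS and rose in both TCMs. In the 2 NS libraries Il1a had 1.88 and 11.4 normalized counts, which are read counts divided by a size factor for depth. It had 1816 and 1629 in NB9464 TCM and 4446 and 4322 in NBT3L TCM. Both TCM groups lay wholly above NS, and NBT3L TCM lay above NB9464 TCM. The log2 fold change of Il1a against NS was 8.03 ± 0.40 (SE) in NB9464 TCM (adjusted p = 4.20e-86) and 9.37 ± 0.40 in NBT3L TCM (adjusted p = 1.66e-117). Because NS held only 2 and 12 counts of Il1a, the size of the change depended on which NS library was kept: it was 7.24 and 8.59 without SJ1 and 9.84 and 11.19 without SJ2.

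Il1b was low but present in NS, with 52.6 and 55.0 normalized counts. It reached 965.2 and 1123 in NB9464 TCM and 9275 and 9335 in NBT3L TCM. The rise was 19.4-fold in NB9464 TCM, a log2 fold change of 4.28 ± 0.17 (adjusted p = 1.02e-141), and 173.0-fold in NBT3L TCM, where it was 7.43 ± 0.17 (adjusted p written as 0). Of the 9 members, Il1b had the largest called difference between the TCMs. NB9464 TCM was 8.91-fold lower than NBT3L TCM (log2 fold change -3.16 ± 0.10, adjusted p = 8.26e-216), and the groups did not overlap. Exons of Il1a share 222 bases with Gm14023 and those of Il1b share 25 with Il1bos, both on the opposite strand, and whether counting used the strand was not stated.

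The brake Il1rn was already expressed in NS and rose in both TCMs too. It had 1975 and 2114 normalized counts in NS, 3968 and 4264 in NB9464 TCM, and 16220 and 16840 in NBT3L TCM. The 3 groups did not overlap. Il1rn increased 2.01-fold in NB9464 TCM (log2 fold change 1.01 ± 0.11, adjusted p = 7.12e-18) and 8.09-fold in NBT3L TCM (3.02 ± 0.11, adjusted p = 4.81e-156). Between the TCMs, Il1rn was 4.02-fold lower in NB9464 TCM (-2.01 ± 0.11, adjusted p = 2.77e-69) and Il1a 2.55-fold lower (-1.35 ± 0.12, adjusted p = 1.24e-26). Neutrophils make IL-1β and the antagonist too. The summed level of 9 neutrophil markers, with none at 0 in all libraries, ranged over 5482 to 5970 normalized counts for NS, 8579 to 8768 for NB9464 TCM, 10510 to 10810 in NBT3L TCM, 4732 to 5699 in R788, 7212 to 7935 in NB9464 TCM + R788 and 7971 to 8313 in NBT3L TCM + R788. Markers with at least 10 raw counts in both libraries numbered 8 in NS, 7 in R788, 4 in NB9464 TCM + R788 and 5 in each of the other groups. This number was smaller in the TCM groups, where the sum was larger than in NS, and S100a8 alone ranged from 670.6 to 8055 normalized counts. Of the other markers, S100a9 was at 1595 to 2596 normalized counts, Ltf at 347.4 to 2132 and Camp at 177.4 to 365.8. Elane, Mpo, Retnlg and Cxcr2 had at most 92 counts in a library, and Ly6g at most 4. The part of these 9 markers in the levels of Il1b and Il1rn was not tested.

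**Figure D1:**
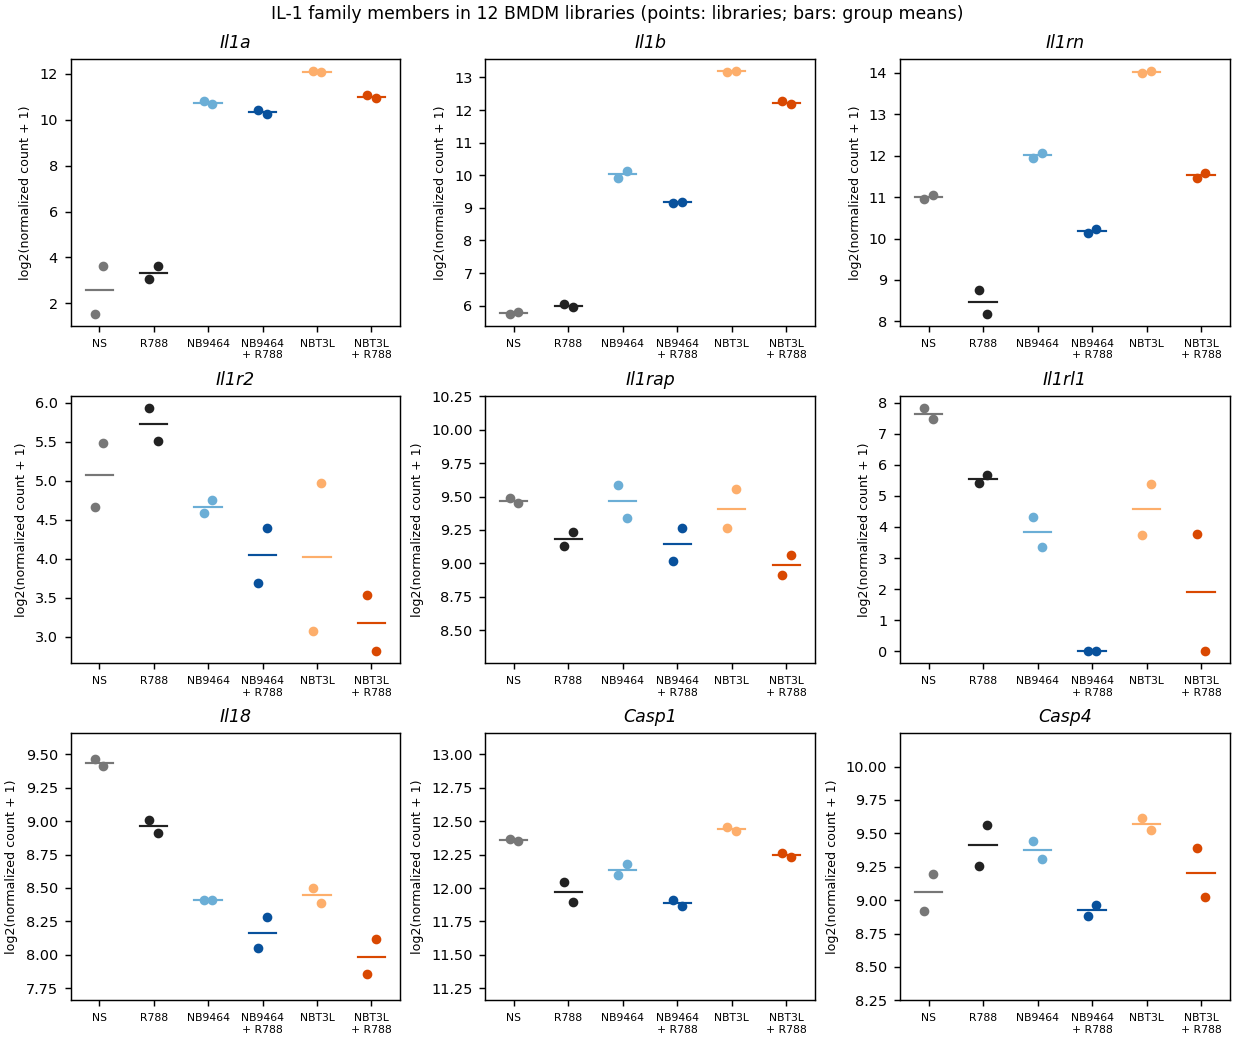
Expression of the 9 members in each library. The y axis is log2(normalized count + 1), with a separate range for each gene, and the x axis lists the groups. Points are libraries and bars the mean of the log2 values of a group (n = 2). Il1a and Il1b sit far above NS in all TCM groups, Il1rn is lower with R788 in each medium, and Il1rl1 falls to 0 in NB9464 TCM + R788.

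R788 lowered Il1rn in each of the 3 media. Without TCM it had 429.9 and 288.2 normalized counts with R788, below both NS libraries. In NB9464 TCM + R788 it had 1129 and 1194, and in NBT3L TCM + R788 it had 2808 and 3086. No group with R788 overlapped its counterpart without it. The log2 fold changes were -2.51 ± 0.12 without TCM (adjusted p = 1.26e-90), -1.83 ± 0.12 in NB9464 TCM (adjusted p = 5.07e-54) and -2.49 ± 0.11 in NBT3L TCM (adjusted p = 2.16e-106), or 5.72-fold, 3.54-fold and 5.61-fold decreases. With R788, Il1rn in NB9464 TCM was below the untreated NS level, and in NBT3L TCM it remained above it. The order of the 6 groups, from lowest to highest, was R788, NB9464 TCM + R788, NS, NBT3L TCM + R788, NB9464 TCM and NBT3L TCM, and no neighbors overlapped.

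Both agonists fell with R788 in each TCM, whereas neither change was called without TCM. Il1b had 569.0 and 579.8 normalized counts in NB9464 TCM + R788 and 4922 and 4614 in NBT3L TCM + R788. These values were all below those of the same TCM alone and all above NS. The log2 fold change of Il1b was -0.86 ± 0.11 in NB9464 TCM (adjusted p = 1.01e-13) and -0.96 ± 0.10 in NBT3L TCM (adjusted p = 1.01e-21). Without TCM, Il1b had 65.4 and 60.7 normalized counts with R788, both above NS, and the change of 0.23 ± 0.20 did not pass the test (adjusted p = 0.456, 95% interval -0.17 to 0.62). The R788 effect on Il1b differed between media by the interaction contrast: it was lower by 1.09 ± 0.23 on the log2 scale in NB9464 TCM than without TCM (adjusted p = 5.22e-05) and lower by 1.19 ± 0.22 in NBT3L TCM than without TCM (adjusted p = 4.38e-06). Between the TCMs the R788 effects on Il1b differed by 0.10 ± 0.14 (adjusted p = 0.985, 95% interval -0.18 to 0.39).

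Il1a with R788 had 1362 and 1228 normalized counts in NB9464 TCM and 2169 and 1964 in NBT3L TCM. Neither group overlapped the same TCM alone. The decrease was 1.33-fold in NB9464 TCM (log2 fold change -0.41 ± 0.12, adjusted p = 0.00709) and 2.12-fold in NBT3L TCM (-1.09 ± 0.12, adjusted p = 1.64e-17). The smaller of these was not called by edgeR (adjusted p = 0.0646), nor by DESeq2 without SJ3 (-0.33, adjusted p = 0.175) or without SJ10 (-0.34, adjusted p = 0.155). Il1a in R788 alone, at 7.27 and 11.2 normalized counts, overlapped NS (log2 fold change 0.50 ± 0.51, adjusted p = 0.521).

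Across members, the TCM comparisons moved in both directions. NB9464 TCM had 3 of the 9 members above NS and 3 below it by the test, where 17.2% of all tested genes were higher and 16.9% lower. In NBT3L TCM, 4 were higher and 2 lower, against 18.0% and 17.3% of all genes. The NS libraries were shared by these comparisons. With R788 no member was called higher in any medium. R788 alone lowered 4 members, where 11.6% of all genes were higher and 15.0% lower than NS. R788 lowered 5 members in NB9464 TCM, where 5.79% of genes were higher and 8.70% lower, and 3 members in NBT3L TCM, where 5.33% were higher and 7.24% lower. In the comparison of NB9464 TCM with NBT3L TCM, 0 members were higher and 4 lower, against 3.69% and 5.72% of all genes. With R788 present, 0 were higher and 5 lower in NB9464 TCM than in NBT3L TCM, against 3.53% and 6.09%. The median log2 fold change of the members was -0.0019 in NB9464 TCM and 0.081 in NBT3L TCM against NS, and with R788 it was -0.29, -0.45 and -0.96 in no TCM, NB9464 TCM and NBT3L TCM. The median over all tested genes was 0.021 and 0 in the TCM comparisons and 0, -0.0031 and 0.0033 in the R788 comparisons.

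**Figure D2:**
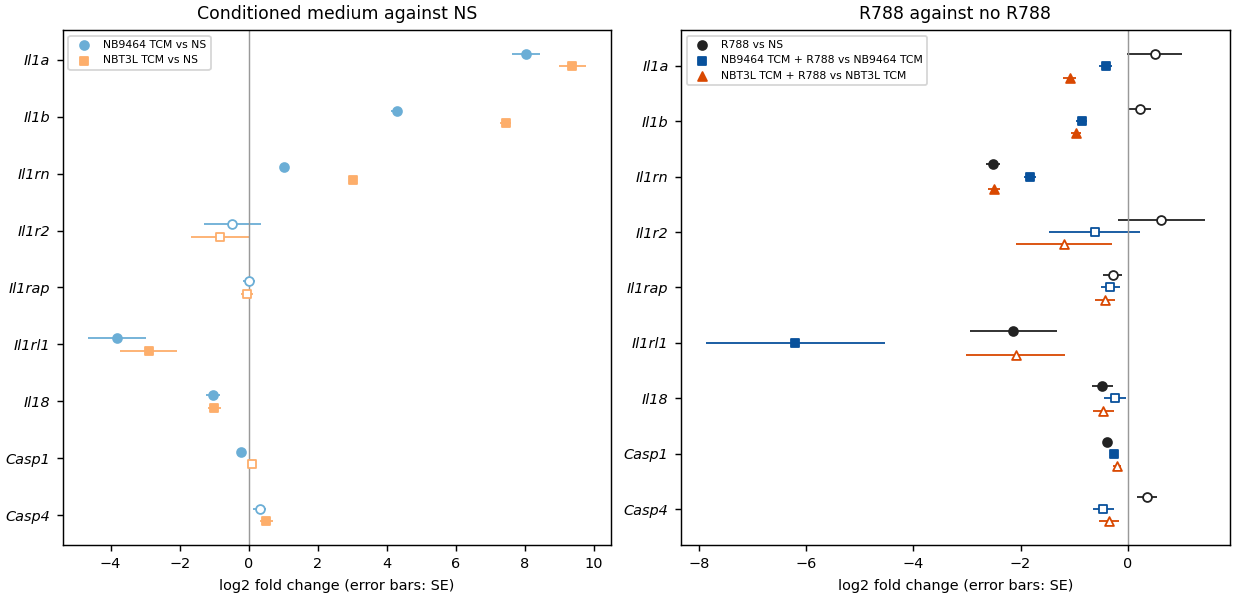
Log2 fold changes of the 9 members with each TCM against NS (left) and with R788 against no R788 in 3 media (right). Symbols give the DESeq2 estimate, error bars the SE, and filled symbols an adjusted p under 0.05. Il1a, Il1b and Il1rn are the members that rise in both TCMs, and Il1rn lies between -2.51 and -1.83 in all R788 comparisons.

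To set agonists against the antagonist on 1 scale, counts were divided by gene length and expressed as TPM, that is, length-scaled counts rescaled to the same sum in each library. In NS, Il1rn was at 23.5 ± 0.61 TPM (SD, n = 2), above Il1b at 1.80 ± 0.017 and Il1a at 0.21 ± 0.21. In NB9464 TCM, Il1a was at 46.7 ± 5.25 TPM, Il1rn at 39.7 ± 0.58 and Il1b at 29.2 ± 2.07. Il1a and Il1rn did not overlap there, and both lay above Il1b. In NBT3L TCM the order was Il1b at 236.7 ± 0.90, Il1rn at 144.9 ± 3.71 and Il1a at 107.7 ± 2.24. In NBT3L TCM + R788, Il1b at 121.5 ± 6.00 TPM and Il1a at 50.9 ± 3.74 both exceeded Il1rn at 25.9 ± 1.63. The same held in NB9464 TCM + R788, where Il1a was at 33.3 ± 1.29 TPM, Il1b at 15.3 ± 0.72 and Il1rn at 10.7 ± 0.79.

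The log2 ratio of summed agonist to antagonist level, (Il1a + Il1b) over Il1rn per length, was -3.64 and -3.46 in NS and -1.03 and -0.47 in R788. It was 0.99 and 0.88 in NB9464 TCM, 2.28 and 2.10 in NB9464 TCM + R788, 1.28 and 1.22 in NBT3L TCM, and 2.86 and 2.61 in NBT3L TCM + R788. Each group with R788 thus lay above its counterpart without R788, and all libraries with TCM lay above all libraries without it. TCM raised the ratio by 3.93 on the log2 scale, averaged over libraries with and without R788 (exact permutation test, two-sided p = 0.00444 over 225 relabellings, the smallest p this design allows). R788 raised it by 1.85, averaged over the 3 media (exact permutation test, two-sided p = 0.00926 over 216 relabellings, the smallest p this design allows), and the increase within a medium was between 1.26 and 2.80. With R788, both the agonists and the antagonist were lower in TCM, and the antagonist fell by more. With Il1b as the only agonist the ratio in NB9464 TCM was below 0, at -0.50 and -0.39, so its sign there rests on Il1a. The sign also rests on length scaling in both TCMs without R788, where summed raw counts of the agonists were below those of Il1rn. SJ3 of NB9464 TCM had 1898 counts of Il1a, 1009 of Il1b and 4148 of Il1rn. SJ5 of NBT3L TCM had 3592, 7494 and 13107. The ratio is one of transcripts, and the length of Il1rn used here, 5535 bases, merges the exons of 6 annotated transcripts.

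**Figure D3:**
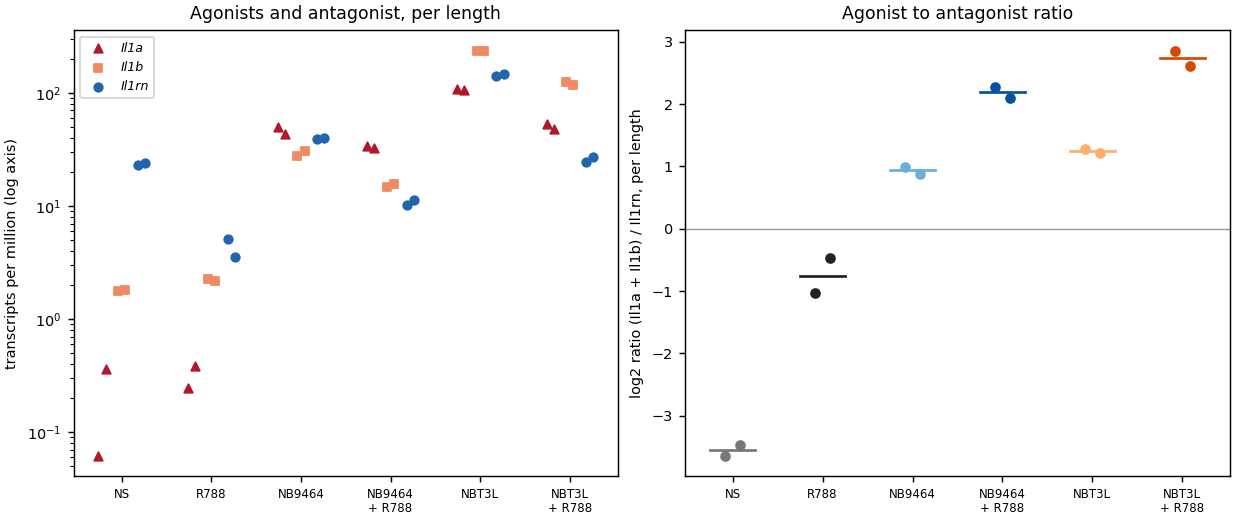
Levels of Il1a, Il1b and Il1rn in TPM on a log axis (left), and the log2 ratio of summed agonists to Il1rn (right), for the 2 libraries of each group. Bars on the right are group means. The length-scaled ratio lies below 0 without TCM and above 0 with TCM, and is higher with R788 in each medium. In both TCMs without R788 its sign depends on the length scaling.

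The R788 effect on Il1rn and Il1a also depended on the medium in part. For Il1rn it was 0.69 ± 0.17 higher on the log2 scale in NB9464 TCM than without TCM (adjusted p = 0.000724), that is, a smaller decrease, whereas in NBT3L TCM it differed from that without TCM by 0.027 ± 0.17 (adjusted p = 0.957, 95% interval -0.30 to 0.35). Of the 9 members, 3 were called in the NB9464 TCM contrast, where 12.5% of all genes were called, and 2 in the NBT3L TCM contrast, where 10.1% were. Between the TCMs, Il1a and Il1rn were called, with R788 effects 0.67 ± 0.17 (adjusted p = 0.0191) and 0.66 ± 0.16 (adjusted p = 0.00996) higher in NB9464 TCM, where 0.706% of all genes were called. Neither was called by edgeR (adjusted p = 0.307 for Il1a and 0.209 for Il1rn). The call of Il1a was lost without SJ4, SJ5, SJ6, SJ9, SJ11 or SJ12 (adjusted p from 0.0711 to 0.28), and that of Il1rn without SJ3, SJ5, SJ6, SJ10 or SJ11 (adjusted p from 0.0682 to 0.153). The R788 effect on Il1a was 1.58 ± 0.52 lower in NBT3L TCM than without TCM (adjusted p = 0.0226), a value that rests on the 2 to 14 counts of Il1a in the libraries without TCM. It was -0.80 without SJ1 (adjusted p = 0.429), -1.22 without SJ8 (adjusted p = 0.266), -1.52 without SJ12 (adjusted p = 0.0534) and -3.40 without SJ2 (adjusted p = 0.0234), and edgeR gave an adjusted p of 0.116.

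The receptor genes Il1r2 and Il1rl1 lie in a 477.6-kb cluster on chromosome 1, in the order Il1r2, Il1r1, Il1rl2, Il1rl1, Il18r1 and Il18rap. The decoy receptor Il1r2 (chr1:40074079-40125231) was scarce in all groups. It had 24.4 and 43.6 normalized counts in NS, 23.0 and 26.0 in NB9464 TCM, 7.43 and 30.3 in NBT3L TCM, 60.0 and 44.7 in R788, 11.9 and 20.0 in NB9464 TCM + R788 and 10.6 and 6.03 in NBT3L TCM + R788. The R788 libraries were above NS, and TCM groups overlapped one another in part. No comparison of Il1r2 passed the test, and at this depth the interval was wide: against NS it was -2.09 to 1.14 on the log2 scale for NB9464 TCM and -2.49 to 0.81 for NBT3L TCM.

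Il1rl1 (chr1:40429570-40465415), the gene for ST2, was lower in both TCMs and with R788 than in NS. It had 225.4 and 176.4 normalized counts in NS, 19.1 and 9.29 in NB9464 TCM and 12.4 and 41.1 in NBT3L TCM. With R788 it had 41.8 and 49.5 without TCM and 12.7 and 0 in NBT3L TCM, and in NB9464 TCM + R788 both libraries had 0 counts. NS stood above all other groups. The log2 fold change of Il1rl1 against NS was -3.82 ± 0.84 in NB9464 TCM (adjusted p = 2.92e-05) and -2.90 ± 0.82 in NBT3L TCM (adjusted p = 0.00172), the latter not called without SJ1 (-2.72, adjusted p = 0.0752). It moved to -4.43 in NB9464 TCM without SJ3, and to -2.29 and -4.02 in NBT3L TCM without SJ5 and without SJ6.

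R788 alone lowered Il1rl1 by 4.40-fold (-2.14 ± 0.81, adjusted p = 0.0304), but edgeR did not call it (adjusted p = 0.0791), and neither did DESeq2 when any 1 of the 4 libraries was left out (adjusted p from 0.147 to 0.432). In NB9464 TCM + R788, Il1rl1 was at least 4.5-fold lower than in NB9464 TCM, computed against a floor of 3 counts per library (adjusted p = 0.00214, and 0.0565 without SJ9). The decrease in NBT3L TCM did not pass the test (-2.09 ± 0.92, adjusted p = 0.111). That value was -0.97 without SJ6, and it was called without SJ11, which left SJ12 with 0 counts as the lone library of its group. With R788, Il1rl1 was also called lower in NB9464 TCM than in NBT3L TCM (adjusted p = 0.033), although the groups overlapped at 0. That call rests on the 12 counts of SJ11, without which the fitted difference was 0. It was also lost without SJ9 (adjusted p = 0.219) or SJ10 (adjusted p = 0.18), and edgeR did not make it (adjusted p = 0.119). Mast cells and basophils carry ST2 too. The summed level of 8 mast cell and basophil markers, 3 of them at 0 in all libraries and Cpa3 at no more than 2 counts, ranged over 95.8 to 101.5 normalized counts for NS, 37.3 to 84.5 for NB9464 TCM, 101.5 to 153.7 in NBT3L TCM, 43.9 to 68.2 in R788, 15.9 to 48.9 in NB9464 TCM + R788 and 24.4 to 64.3 in NBT3L TCM + R788. Its part in the result was not tested.

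**Figure D4:**
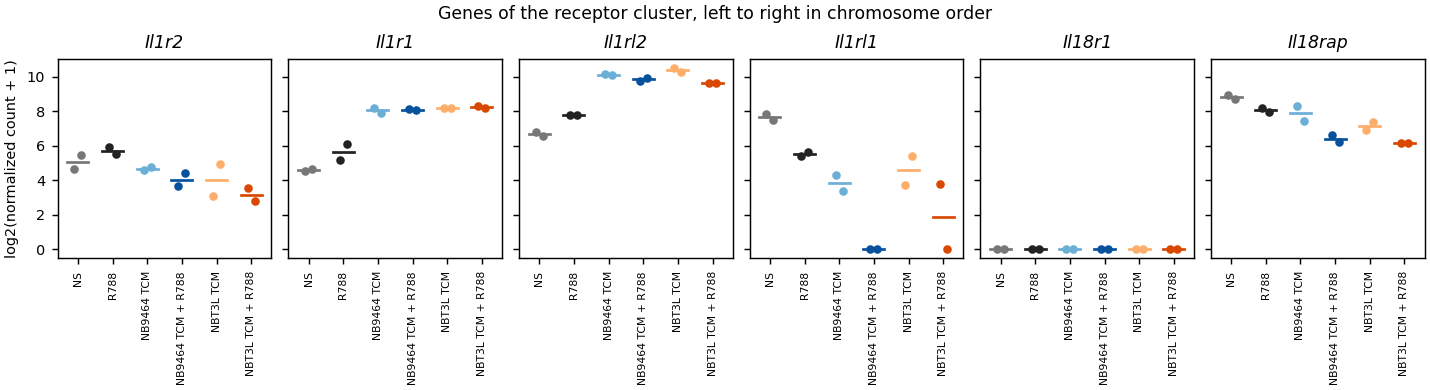
Levels of the 6 genes of the receptor cluster on chromosome 1 in each library, in chromosome order, as log2(normalized count + 1) on a shared axis. Points are libraries and bars the mean of the log2 values. Il1r1 and Il1rl2 are higher and Il1rl1 and Il18rap lower in both TCMs than in NS, while Il18r1 is at 0 in all libraries.

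Other genes of the cluster moved in both directions. Il1r1, the signaling IL-1 receptor, had 22.5 and 24.6 normalized counts in NS, 288.9 and 241.5 in NB9464 TCM, and 289.6 and 288.9 in NBT3L TCM. It rose by 3.49 ± 0.36 on the log2 scale in NB9464 TCM (adjusted p = 9.07e-21) and by 3.62 ± 0.36 in NBT3L TCM (adjusted p = 3.49e-22). Il1rl2, the IL-36 receptor, rose by 3.46 ± 0.18 and 3.72 ± 0.18. Il18rap, the accessory chain of the IL-18 receptor, changed by -0.91 ± 0.32 (adjusted p = 0.0172) and -1.68 ± 0.33 (adjusted p = 2.49e-06), and Sigirr, a negative regulator of IL-1 receptor signaling on another chromosome, changed by -1.22 ± 0.51 (adjusted p = 0.049) and -2.03 ± 0.52 (adjusted p = 0.000501). Of 8 other family receptors and binding proteins, 5 passed the count filter, and of these 2 were higher and 2 lower in each TCM, where 17.2% to 18.0% of all tested genes were higher and 16.9% to 17.3% lower. R788 alone raised Il1r1 (1.115 ± 0.38, adjusted p = 0.0145) and Il1rl2 (1.108 ± 0.19, adjusted p = 5.18e-08). With R788 alone Il1r1 had 34.5 normalized counts in SJ7 and 67.1 in SJ8, the library with the fewest genes detected. Within TCM, the R788 change of Il1r1 was 0.02 ± 0.31 in NB9464 TCM and 0.06 ± 0.31 in NBT3L TCM, and neither passed the test. Il1rl2 was lower with R788 in NBT3L TCM (-0.74 ± 0.15, adjusted p = 3.07e-05), opposite to its change without TCM, and the difference between these R788 effects was -1.85 ± 0.24 (adjusted p = 2.77e-12). In NB9464 TCM its R788 change of -0.28 ± 0.15 did not pass the test (adjusted p = 0.227). Il18rap was lower with R788 in both TCMs, with log2 fold changes of -1.51 ± 0.34 in NB9464 TCM (adjusted p = 0.00015) and -1.02 ± 0.35 in NBT3L TCM (adjusted p = 0.0282).

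Il1rap (chr16:26581704-26730117), the accessory chain needed for the IL-1 and IL-33 signal, did not pass the test in any comparison. It had 718.5 and 697.9 normalized counts in NS, 769.1 and 645.6 in NB9464 TCM and 613.9 and 751.0 in NBT3L TCM. These groups overlapped, and the log2 fold change against NS was -0.0019 ± 0.18 in NB9464 TCM (95% interval -0.35 to 0.34) and -0.052 ± 0.18 in NBT3L TCM (95% interval -0.40 to 0.30). With R788 it had 559.0 and 602.8 without TCM, 518.2 and 613.1 in NB9464 TCM and 481.4 and 534.6 in NBT3L TCM. All 6 of these libraries were below those of the same medium without R788. None of the 3 changes of Il1rap, from -0.29 to -0.43, passed the test (adjusted p = 0.241, 0.225 and 0.0926). Its exons share 552 bases with Gm20319 on the opposite strand.

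Il18 (chr9:50554827-50581840) went down where Il1b went up. It had 705.3 and 678.9 normalized counts in NS, 338.6 and 339.1 in NB9464 TCM, and 360.2 and 334.4 in NBT3L TCM. NS lay above both TCM groups, which overlapped each other. The decrease was 2.04-fold in NB9464 TCM (-1.03 ± 0.20, adjusted p = 8.76e-07) and 1.99-fold in NBT3L TCM (-0.996 ± 0.20, adjusted p = 2.49e-06). With R788, Il18 had 515.3 and 480.6 normalized counts without TCM, 263.6 and 309.9 in NB9464 TCM, and 230.1 and 276.3 in NBT3L TCM. Only the decrease without TCM was called (-0.48 ± 0.19, adjusted p = 0.0462), and it was not called when any 1 of the 4 libraries was left out (adjusted p from 0.0875 to 0.223). In TCM the R788 changes were -0.24 ± 0.20 (adjusted p = 0.481) and -0.45 ± 0.20 (adjusted p = 0.121). Il18bp, which encodes a secreted inhibitor of IL-18, did not pass the test in any of these comparisons, with 489.3 and 485.5 normalized counts in NS, 619.8 and 471.9 in NB9464 TCM and 514.9 and 437.2 in NBT3L TCM.

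Casp1 had the highest TPM of the 9 members in each group except NBT3L TCM, where Il1b was higher, and its changes were small. Its level in NS was 223.8 ± 6.00 TPM. It had 5276 and 5241 normalized counts in NS, 4384 and 4635 in NB9464 TCM and 5619 and 5507 in NBT3L TCM. NB9464 TCM lay below NS and below NBT3L TCM. Casp1 was 1.17-fold lower in NB9464 TCM than in NS (-0.22 ± 0.07, adjusted p = 0.00929), a call lost without SJ1 (adjusted p = 0.0743), SJ2 (0.0567) or SJ3 (0.135). It was 1.23-fold lower than in NBT3L TCM (-0.30 ± 0.07, adjusted p = 0.000693), a call lost without SJ3 (adjusted p = 0.064). The change in NBT3L TCM against NS, 0.081 ± 0.07, did not pass the test (adjusted p = 0.444).

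With R788, Casp1 had 4224 and 3812 normalized counts without TCM, 3847 and 3723 in NB9464 TCM and 4918 and 4807 in NBT3L TCM. Each of these was below the same medium without R788. The log2 fold change was -0.39 ± 0.07 without TCM (adjusted p = 1.41e-06), -0.25 ± 0.07 in NB9464 TCM (adjusted p = 0.0059) and -0.19 ± 0.07 in NBT3L TCM (adjusted p = 0.0532). The call in NB9464 TCM was lost without SJ4 (adjusted p = 0.124) or SJ10 (adjusted p = 0.109). With R788 in both, Casp1 was lower in NB9464 TCM than in NBT3L TCM (-0.36 ± 0.07, adjusted p = 3.73e-05), as were Il1b (-3.05 ± 0.10, adjusted p = 1.79e-182), Il1rn (-1.34 ± 0.12, adjusted p = 1.38e-28) and Il1a (-0.67 ± 0.12, adjusted p = 1.77e-06).

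Casp4 had 483.7 and 586.0 normalized counts in NS, 695.4 and 633.5 in NB9464 TCM and 783.4 and 736.9 in NBT3L TCM. The TCM groups lay above NS. Casp4 was 1.42-fold higher in NBT3L TCM (0.51 ± 0.19, adjusted p = 0.0226), a call lost without SJ1 (adjusted p = 0.25), SJ5 (0.154) or SJ6 (0.0745), and the change in NB9464 TCM did not pass the test (0.31 ± 0.19, adjusted p = 0.211). With R788, Casp4 had 611.7 and 756.1 normalized counts without TCM, 471.5 and 498.7 in NB9464 TCM, and 669.1 and 518.5 in NBT3L TCM. R788 libraries lay above NS without TCM, and below the same TCM alone in both TCMs, but none of the 3 changes passed the test (adjusted p = 0.154, 0.0795 and 0.218). The difference between the R788 effects was called for NB9464 TCM against no TCM (-0.81 ± 0.27, adjusted p = 0.0206), and without SJ1, SJ3, SJ8, SJ9 or SJ10 it was not (adjusted p from 0.0521 to 0.135).

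The wider pathway was described from lists of its parts. The shares of all tested genes to read beside their counts are 17.2% higher and 16.9% lower in NB9464 TCM, and 18.0% and 17.3% in NBT3L TCM. With R788 they are 11.6% higher and 15.0% lower without TCM, 5.79% and 8.70% in NB9464 TCM, and 5.33% and 7.24% in NBT3L TCM. Among inflammasome genes, 21 were tested, 7 were higher and 6 lower in NB9464 TCM, and 9 were higher and 6 lower in NBT3L TCM, with a median log2 fold change of -0.14 and 0.016. Nlrp3, the sensor that activates caspase-1 after many danger signals, rose by 0.825 ± 0.06 in NB9464 TCM (adjusted p = 2.67e-41) and 1.004 ± 0.06 in NBT3L TCM (adjusted p = 8.34e-61), and was lower with R788 in both (-0.43 ± 0.06, adjusted p = 5.61e-11, and -0.49 ± 0.06, adjusted p = 3.17e-14). Nlrp3 was chosen after its values were seen. Mefv, the gene for pyrin, rose by 1.22 ± 0.10 in NBT3L TCM (adjusted p = 5.33e-34), and Nlrp1b, another sensor, changed by -2.35 ± 0.19 (adjusted p = 2.65e-32). In NB9464 TCM their mean normalized counts moved the same way, to 3358 from 1689 in NS for Mefv and to 209.3 from 952.7 for Nlrp1b. Naip1, which detects bacterial secretion needles, rose by 1.79 ± 0.44 in NBT3L TCM (adjusted p = 0.000236), and Txnip, a thioredoxin-binding protein gene, changed by -1.22 ± 0.06 in NB9464 TCM (adjusted p = 1.70e-91). Mean Naip1 was 103.1 normalized counts in NB9464 TCM against 56.15 in NS, and mean Txnip 7424 in NBT3L TCM against 12300 in NS. Pycard, the adaptor that joins sensors to caspase-1, was higher in NB9464 TCM than in NBT3L TCM (0.61 ± 0.09, adjusted p = 3.94e-09), opposite to Casp1. Gbp2, a guanylate-binding protein gene, was lower there (-0.97 ± 0.19, adjusted p = 1.35e-05) and was lowered by R788 in NBT3L TCM (-1.49 ± 0.19, adjusted p = 8.43e-13). Its mean was also lower with R788 without TCM (609.1 normalized counts against 1374) and in NB9464 TCM (524.6 against 978.4). With R788 in both TCMs, Txnip (-0.51 ± 0.06) and Panx1 (-0.31 ± 0.09), a channel gene, were lower in NB9464 TCM. With R788, 5 inflammasome genes were higher and 1 lower without TCM, 4 higher and 2 lower in NB9464 TCM, and 4 higher and 3 lower in NBT3L TCM. R788 alone raised Ninj1 (0.62 ± 0.09), which acts in plasma membrane rupture, and Nlrc4 (0.615 ± 0.15), the partner of the Naip sensors, and in NBT3L TCM it raised Nlrp1b (0.82 ± 0.20). Mean Ninj1 with R788 was 23560 normalized counts against 17710 in NB9464 TCM and 22010 against 17240 in NBT3L TCM. Mean Nlrc4 was 1300 against 1306 and 1382 against 1472. Mean Nlrp1b was 1185 against 952.7 without TCM and 316.3 against 209.3 in NB9464 TCM.

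Among 14 genes that relay the IL-1 receptor signal, 4 were higher and 1 lower in NB9464 TCM, and 4 higher and 2 lower in NBT3L TCM, and their median log2 fold change was 0.035 and -0.069. The largest called change was that of Irak3, which encodes a kinase-dead inhibitor of this relay. It had 3161 and 3055 normalized counts in NS, 16840 and 15900 in NB9464 TCM, and 16360 and 17170 in NBT3L TCM, a rise of 2.43 ± 0.06 in NBT3L TCM. R788 raised Irak3 without TCM (0.75 ± 0.06, adjusted p = 1.49e-31), and within TCM the changes of 0.14 ± 0.06 and 0.12 ± 0.06 did not pass the test. Myd88, the adaptor of the receptor, rose by 0.41 ± 0.09 in NBT3L TCM (adjusted p = 2.87e-05) and was lowered by R788 without TCM (-0.32 ± 0.09, adjusted p = 0.00196). In NBT3L TCM the kinase gene Irak2 rose by 0.74 ± 0.10 and Tab1, a partner of the kinase TAK1, changed by -0.59 ± 0.13, while R788 raised Tab1 there by 0.49 ± 0.13. Mean normalized counts in NB9464 TCM were 5032 for Myd88, 3136 for Irak2 and 1246 for Tab1, against 4086, 2093 and 1492 in NS. With R788, 3 relay genes were higher and 2 lower without TCM, 0 were called in NB9464 TCM, and 1 was higher and 2 lower in NBT3L TCM. Irak4, another kinase of the relay, rose by 0.38 ± 0.14 with R788 alone. Between the TCMs 0 were called, where 3.69% of all tested genes were higher and 5.72% lower in NB9464 TCM. With R788 present Irak1 (0.24 ± 0.07) and Irak2 (0.31 ± 0.10) were higher in NB9464 TCM, where 3.53% of all tested genes were higher and 6.09% lower.

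Among 12 feedback inhibitors of NF-kB signaling or cytokine mRNA, 8 were higher and 2 lower in NB9464 TCM, and 7 higher and 1 lower in NBT3L TCM, and their median log2 fold change was 1.176 and 1.108. Socs3, a feedback inhibitor of cytokine receptors, had 487.4 and 491.2 normalized counts in NS, 18570 and 18440 in NB9464 TCM, and 21080 and 20570 in NBT3L TCM. Its rise in NBT3L TCM was 5.41 ± 0.18 (adjusted p = 1.21e-192). Socs1 rose by 3.41 ± 0.17 in NBT3L TCM and, like Il1rn, was lower in NB9464 TCM than in NBT3L TCM (-1.24 ± 0.16, adjusted p = 5.18e-13). In NB9464 TCM its mean of 1121 normalized counts was still above the 248.5 of NS. Tnfaip3, which encodes the ubiquitin-editing enzyme A20, rose by 1.91 ± 0.09 in NB9464 TCM (adjusted p = 1.22e-102), and Zc3h12a, which encodes an RNase that degrades cytokine mRNA, by 1.86 ± 0.06 in NBT3L TCM. Mean Tnfaip3 was 6757 normalized counts in NBT3L TCM against 2022 in NS, and mean Zc3h12a 10210 in NB9464 TCM against 3014 in NS. With R788, 3 of these genes were higher and 6 lower without TCM, 4 higher and 3 lower in NB9464 TCM, and 1 higher and 3 lower in NBT3L TCM. Without TCM, R788 lowered Tnip3 (-1.24 ± 0.06, adjusted p = 1.43e-97), Dusp1 (-1.02 ± 0.09, adjusted p = 8.52e-29) and Zfp36 (-0.90 ± 0.08, adjusted p = 1.18e-24), the last an mRNA-destabilizing protein gene, and raised Nfkbie (1.29 ± 0.13, adjusted p = 3.03e-21), an inhibitor of NF-kB. Means with R788 in NB9464 TCM were 6706 against 6461 for Tnip3, 3916 against 5135 for Dusp1, 4502 against 5298 for Zfp36 and 1774 against 1191 for Nfkbie. In NBT3L TCM they were, in that order, 7353 against 7590, 2024 against 3255, 4589 against 5325 and 1956 against 1496. Tnip3 was lower in NB9464 TCM than in NBT3L TCM (-0.23 ± 0.06), and with R788 present Dusp1 (0.95 ± 0.09) and Tnfaip3 (0.56 ± 0.09) were higher there. Adjusted p values throughout are from DESeq2 unless edgeR is named.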

How the data were processed

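The deposited table held raw read counts per Ensembl gene for 12 libraries (6 groups of 2, by the labels), which the authors obtained from poly(A)-selected RNA by mapping to mm10 with STAR and quantifying with Salmon in a bcbio pipeline. The submitters' processing notes list STAR 2.6.1d, Salmon 1.4.0, SAMtools 1.9, Picard 2.26 and MultiQC 1.11. Strand use and multimapped reads were not given in the sources used here. Even counts were more frequent than odd ones, and halved counts were therefore fitted too.

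The fit held 16281 genes that reached 10 counts in 2 or more libraries. They were fitted together with DESeq2 1.42.0 in R 4.3.3, as group means over all libraries with two-sided Wald tests. P-values were adjusted (Benjamini-Hochberg) over all tested genes within a contrast, and an adjusted p under 0.05 was called. Il1r2 had no adjusted p for NB9464 TCM against NBT3L TCM. SE is that of the log2 fold change. TPM was computed from gene lengths in the table, which equaled merged exons of GENCODE M21 (GRCm38) for 97.3% of shared gene IDs (54165). All 9 members matched RefSeq promoters on GRCm38.p6, with 13 starts. The ratio was tested by exact permutation within strata of TCM or R788. Scripts were tested on simulated data.

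The members and lists were chosen with earlier results of these data known. All members were named. Of each pathway list, up to 4 called genes with the largest change and a mean of at least 50 normalized counts could be named per kind of comparison (TCM, R788, tumor line), besides genes next to the members. Sigirr and Il18bp belong to the receptor list. Il18bp, Nlrp3, Il1f6 and other values of named genes outside the comparison that named them were chosen after the values were seen. Marker lists covered macrophages, mast cells and basophils, neutrophils, lymphocytes, dendritic cells, neuroblastoma and fibroblasts. The alternatives were edgeR 4.0.16 (quasi-likelihood, TMM), TMM scaling in DESeq2, fits without the filter, with genes averaging 50 counts or more, or with halved counts, a 2-fold minimum, only the libraries compared, and each library left out in turn.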

Additional observations from a re-analysis of the deposited data

Results flagged for a closer look

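The effect of R788 differed between media by the interaction test for 4 members. Against the effect without TCM, the effect in NB9464 TCM was -1.09 (log2) for Il1b, 0.69 for Il1rn and -0.81 for Casp4, and the effect in NBT3L TCM was -1.58 for Il1a and -1.19 for Il1b. Against the effect in NBT3L TCM, that in NB9464 TCM was 0.67 for Il1a and 0.66 for Il1rn. The 2 differences for Il1b and that for Il1rn in NB9464 TCM against no TCM were called in all 8 fits that left out a library. Of these fits, the difference of Casp4 was called in 3, that of Il1a in NBT3L TCM in 5, and those between the TCMs in 2 for Il1a and 3 for Il1rn. Over all genes tested, 12.5%, 10.1% and 0.706% were called in these contrasts. Groups of 2 libraries were too small for a test of single outlying libraries.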

How the results depend on the processing

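Of 835 recomputed values of single members, 734 kept their direction and side of the threshold, 82 lost the call, 3 gained one and 16 changed sign, none of them a called value. For the interaction contrasts, these values covered only Il1a, Il1b, Il1rn and, where it was called, Casp4. The differences of the agonist to antagonist ratio with TCM and with R788 kept their direction and side under all alternatives. The ratio itself in NB9464 TCM turned from 0.99 and 0.88 to -0.50 and -0.39 with Il1b as the only agonist. Without length scaling it was below 0 on the log2 scale in both TCMs without R788. The number of members called changed as follows, and causes were not tested unless the setting itself demands more. A 2-fold minimum left 3 members called for each TCM against NS, 1 in each of the 3 R788 comparisons, 2 between the TCMs, 1 between the TCMs with R788, and 0 in each of the 3 interaction contrasts. Over all 16281 genes it left 433 higher and 346 lower for NB9464 TCM and 482 and 359 for NBT3L TCM against NS, 33 and 115 with R788 alone, 2 and 78 with R788 in NB9464 TCM, 3 and 81 in NBT3L TCM, 19 and 11 between the TCMs, 16 and 11 between them with R788, and 11 and 11, 12 and 13, and 0 and 0 in the interactions. The NBT3L TCM interaction against no TCM had 1 with edgeR and 1 with halved counts, and that between the TCMs 0 with edgeR. Calls over all 16281 genes fell too. For the NBT3L TCM interaction they were 842 higher and 807 lower in the main fit, 628 and 568 with edgeR, and 776 and 736 with halved counts. Between the TCMs they were 46 and 69 in the main fit and 7 and 14 with edgeR. Leaving out each library in turn left 2 in R788 against NS (without Il1rl1 and Il18, each of the 4 libraries), 3 to 4 in NB9464 TCM + R788 against NB9464 TCM, 1 to 4 in the NBT3L TCM interaction and 0 to 1 in the interaction between the TCMs. Values that changed sign were small or had few counts. With a mean of at least 50 counts, Il1rap in NB9464 TCM against NS was 0.0033. Leaving out a library gave -0.84 to 0.0010 for Il1r2 and -0.13 to 0.12 for Il1rap in NB9464 TCM against NS, -0.21 to 0.085 for Il1rap in NBT3L TCM against NS, -0.29 to 2.31 for Il1a in R788 against NS, and -1.87 to 0.16 for Il1r2 with R788 in NBT3L TCM. Between the TCMs it gave -0.31 to 1.72 for Il1r2, -0.089 to 0.20 for Il1rap, -1.54 to 0.20 for Il1rl1 and -0.089 to 0.017 for Il18. In interactions it gave -0.24 to 0.34 for Il1rn (NBT3L TCM against no TCM) and -0.0029 to 0.22 for Il1b (between the TCMs). Interaction values outside the counted set changed sign too. Il1rl1 gave -5.05 to 1.17 and Il18 -0.12 to 0.14 in NBT3L TCM against no TCM. Between the TCMs, Il1rl1 gave -5.22 to 0.99, Il1r2 -0.78 to 1.25 and Casp4 -0.27 to 0.098. Il1rap gave -0.17 to 0.093 in NB9464 TCM against no TCM, -0.28 to 0.016 in NBT3L TCM and -0.051 to 0.24 between the TCMs. No paired analysis was possible because no library number is shared between groups. A lone library left in a group is assumed to vary like the others. Il1r2, Il1rl1 and, without TCM, Il1a are limited by their low counts.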

Other observations

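Of 10 entries in the list of other family cytokines, 6 had a gene ID under that name and 2 passed the count filter, Il1f9 and Il1f6, the genes for IL-36γ and IL-36α, which lie in the cluster that ends with Il1rn. Il1f9 had 106.1 and 140.3 normalized counts in NS, 2069 and 2261 in NB9464 TCM and 2944 and 2668 in NBT3L TCM, and rose by 4.13 ± 0.48 and 4.51 ± 0.48 on the log2 scale (DESeq2, adjusted p = 6.29e-17 and 5.15e-20). With R788 it had 207.2 and 65.5 without TCM, 1024 and 1365 in NB9464 TCM and 1127 and 1493 in NBT3L TCM, and the decreases in TCM did not pass the test (adjusted p = 0.22 and 0.0984). Il1f6 had 0 and 1.896 normalized counts in NS, 43.0 and 53.9 in NB9464 TCM, 144.8 and 166.6 in NBT3L TCM and 36.05 and 18.1 in NBT3L TCM + R788, where it was lower than without R788 (-2.53 ± 0.73, adjusted p = 0.00576).

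The genes whose log2 levels followed a member most closely over the 12 libraries were, by Pearson r among genes averaging 100 normalized counts or more, Pilra (0.993), Pilrb1 (0.993) and Ly6i (0.992) for Il1a, Srxn1 (0.994), Ero1l (0.985) and Txnrd1 (0.984) for Il1b, and Hspa8 (0.984), Cd300ld (0.98) and 2010005H15Rik (0.97) for Il1rn. For Il18 they were E2f7 (0.987), Fmr1 (0.987) and Haus3 (0.984), for Il1rl1 Ticrr (0.95), Kntc1 (0.948) and AI504432 (0.945), and for Casp1 Impa2 (0.959), Tubb5 (0.956) and Serpinb9b (0.956). For Il1r2, Il1rap and Casp4 the highest r was 0.898 (Abhd14b), 0.895 (Zc3hav1) and 0.906 (Slc30a1). These are descriptions over libraries that share 6 treatments, without a test.

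The summed level of 9 lymphocyte markers was 7254 to 7755 in NS and 1106 to 3988 in the other groups, and Il7r alone ranged from 1078 to 7664 over the 12 libraries. Summed fibroblast markers (7) ranged from 1309 to 3580, dendritic markers (7) from 36.4 to 170.3 and neuroblastoma markers (9) from 0 to 86.6. Their part in the levels of the members was not tested.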
